A study of Homo sapiens with 4 samples.

Results

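The class I and class II histone deacetylases are a family of 10 human genes, HDAC1 to HDAC10. Their RNA was followed here in a streptavidin pull-out from DU-145, an established human prostate cancer cell line. The 10 genes were taken by symbol, and the family was selected on the FPKM of HDAC1 (fragments scaled by transcript length and by all mapped fragments), which these same libraries showed to be higher in the tagged pull-out. They correspond to 30 of the 53209 deposited transcript rows, and 8 of the 10 were among the 9941 genes that were expressed highly enough to be tested. Since the choice of genes rested on the tagged against untagged contrast, their values in that contrast are given as a description, and nothing is drawn from a test of them.

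All cells were transfected by lipofectamine with 60 nM of miR-26a, a microRNA that pairs with mRNAs mainly through its seed, bases 2 to 8. The 2 biotin libraries (ds-miR-26aBIO) came from cells given a mix of miR-26a 7tU and miR-26a 17tU duplexes, which carry biotin at the 3′ end and a thiouridine at nucleotide 7 or 17. The 2 control libraries (ds-miR-26aCT) came from cells given the plain miR-26a duplex. Both groups were irradiated at 365 nm with 2 J/cm2 the next day, and RNA kept by the beads was sequenced. The biotin and control groups therefore differ in tag and in thiouridine together, and control values measure RNA left on beads without a tag. Each value is the RNA recovered, and input RNA was not analysed here. More of a transcript in the cells, more of it per bead, and a different share of cells carrying it cannot be told apart. The series design names 2 biological replicates per group, an exact permutation test of which cannot go below p = 0.333.

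Histone deacetylases remove acetyl groups from lysines of histones and other proteins, using zinc in the active site. Class I enzymes (HDAC1, HDAC2, HDAC3 and HDAC8) are mostly nuclear. HDAC1 and HDAC2 are the catalytic subunits of the NuRD, SIN3, CoREST and MiDAC complexes, and HDAC3 that of the NCoR complex. Class IIa enzymes (HDAC4, HDAC5, HDAC7 and HDAC9) have little catalytic activity of their own, bind MEF2 transcription factors and leave the nucleus when phosphorylated. Class IIb holds HDAC6, a cytoplasmic deacetylase of tubulin, and HDAC10, which acts on polyamines.

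The mature miR-26a-5p is printed to show what was transfected. It is 22 bases long and is made from 2 genes, MIR26A1 (GRCh38.p14, chr3:37969413-37969434, plus strand) and MIR26A2 (chr12:57824658-57824679, minus strand). The sequence is that of RefSeq, the seed is in capitals, and bases 7 and 17, the labelled thiouridine positions, are both U in it.
miR-26a-5p: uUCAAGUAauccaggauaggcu
A full seed match in an mRNA reads TACTTGA. On the sense strand of the main HDAC transcripts in GENCODE 29 it was found at 2 places, which are shown because they are the only such matches in these transcripts. The HDAC4 match lies at bases 1179 to 1185 of a 3′ UTR of 4929 bases, and the HDAC8 match at bases 949 to 955 of a coding sequence of 1134 bases. Capitals mark the match.
HDAC4 (chromosome 2, 3′ UTR): gctaagaaactTACTTGAttcttatgaaa
HDAC8 (chromosome X, coding sequence): gatgctggacaTACTTGAccggggtcatc
The HDAC1 transcript held no full match and no match to bases 2 to 7 (ACTTGA) in its 5′ UTR, its coding sequence of 1449 bases or its 3′ UTR of 591 bases. Over 9367 tested genes with a matched transcript, 11.8% had TACTTGA in the 3′ UTR and 6.67% in the coding sequence. A match to bases 2 to 7 was found in 33.9% of those 3′ UTRs and 26.2% of those coding sequences. These shorter matches include the ACTTGA within each full match. HDAC4 had 3 of them in its 3′ UTR, 1 of which lies in its full match. In coding sequences HDAC5 had 3, HDAC9 had 2, and HDAC2 and HDAC8 had 1 each, that of HDAC8 being part of its full match. In the longest annotated 3′ UTR of each gene, 3 of the 10 had TACTTGA, namely HDAC4, HDAC8 and HDAC9, against 14.8% of all these genes. For HDAC5 the matched GENCODE transcript ends 82 bases after the stop codon, so most of its 3′ UTR was searched only in the longest form of 1630 bases.

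Depth was estimated from deposited coverage and FPKM at 17560000 and 23640000 mapped reads in the biotin libraries and 16030000 and 17830000 in the control libraries. Replicates correlated at r = 0.970 (biotin) and 0.971 (control) across tested genes, which are not independent, against 0.876 to 0.883 between groups. DU-145 epithelial genes were present in all libraries: 11 of 11 listed markers were tested, and their summed FPKM was 405.3 and 471.6 in biotin and 428.7 and 574.3 in control libraries. KLK3, KLK2 and FOLH1, which mark luminal prostate cells, were listed at 0 in all 4 libraries, as were PTPRC, CD3E and HBB of blood cells and CHGA of neuroendocrine cells. None of the 5 fibroblast markers reached 1 FPKM in any library. Summed FPKM was 7.902 and 7.21 in biotin and 3.84 and 5.19 in control libraries for the 5 neuroendocrine markers, of which 1, ENO2, was tested and higher. For the 7 blood markers it was 3.22 and 1.95 in biotin and 2.35 and 1.88 in control libraries, and for the 9 luminal markers 6.72 and 7.44 in biotin and 8.46 and 8.2 in control libraries. Of these lists limma called CD44 and EGFR (epithelial), SLC45A3 (luminal) and CD14 (blood) higher by 2.12, 1.03, 0.71 and 0.91 on the log2 scale, and STEAP1 (luminal) and CD74 (blood) lower, at -0.61 and -0.69. CD14 reached the level for testing through its biotin values alone, and CD74 through its control values alone. The filter thus favoured the direction of each, and nothing is read from either call. The part of these cells in the results was not tested. The linear model in limma placed 1307 tested genes above and 927 below the controls (two-sided, p adjusted after Benjamini-Hochberg below 0.05). With any 1 of the 4 libraries left out, it placed between 193 and 680 above and between 32 and 223 below. With upper-quartile scaling of all 4 libraries the counts were 1224 and 1383, so that 47.0% of the calls were increases, against 58.5% without it. Median-of-ratios scaling moved this share the other way, to 67.1%, with 1500 genes above and 737 below.

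HDAC1 was the most abundant of the 10 genes on the FPKM scale in all 4 libraries. It stood at 57.1 and 41.8 FPKM in the biotin libraries, against 12.4 and 11.5 FPKM in the control libraries. The groups did not overlap, and the lower biotin value was far above the higher control value. The means were 49.4 ± 10.9 FPKM in biotin and 11.9 ± 0.612 FPKM in control libraries (SD, n = 2 each), a ratio of 4.14. On the log2(FPKM + 1) scale the difference was 1.95 ± 0.21 (SE from the fit across all genes), which ranked 183 of 9941 tested genes. HDAC1 is listed as a single transcript, NM_004964, of 2091 nt at chr1:32292107-32333623 (hg38). An estimated 2092 and 2059 reads lay behind the biotin values, against 414 and 429 behind the control values. Of the 2075 stretches of 50 bases (the read length) in its matched mRNA, 9 also occur in a transcript of another gene, the pseudogene HDAC1P2. Only identical stretches were counted, and reads that align with mismatches were not examined.

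**Figure D1:**
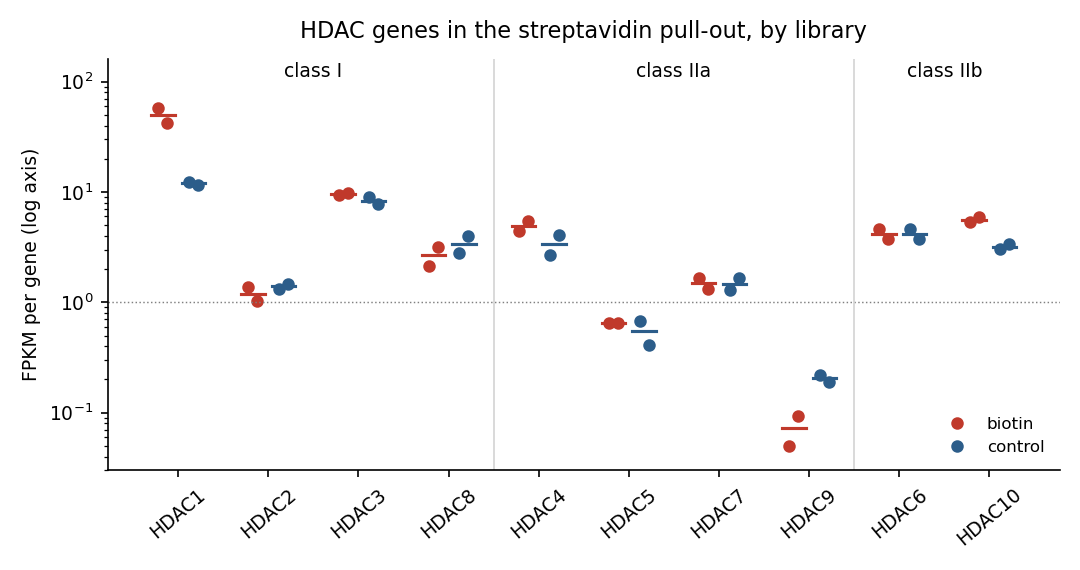
FPKM of each HDAC gene (log axis, transcript rows summed) in the 2 biotin libraries (red) and the 2 control libraries (blue), with a line at each group's mean and a dotted line at 1 FPKM. HDAC1 has its biotin points at 57.1 and 41.8 and its control points at 12.4 and 11.5, and for most other genes the points of the groups lie close together.

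HDAC2, the closest paralog of HDAC1 and its partner in the same complexes, was listed far lower. It had 1.36 and 1.03 FPKM in the biotin libraries, against 1.33 and 1.47 FPKM in the control libraries. The groups overlapped, and the log2 difference was -0.13 ± 0.15 (SE). All of this came from 1 of 3 listed rows, NM_001527, since the other rows, NR_033441 and NR_073443, were at 0 in every library. Only 2 of 9825 stretches of 50 bases in the matched HDAC2 mRNA occur in another gene's transcript. That mRNA is 9874 bases long, against 6656 nt for the deposited row, so some of the stretches lie outside the row.

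HDAC3, the second most abundant gene by mean FPKM in both groups, had 9.43 and 9.78 FPKM in the biotin libraries and 8.93 and 7.79 FPKM in the control libraries. Both biotin values were above both controls, by a log2 difference of 0.18 ± 0.16 (SE), a little more than its error. An antisense transcript overlaps 43 of its 1910 stretches of 50 bases, and whether the authors counted by strand is not given in the sources used here. HDAC8, a deacetylase of the cohesin subunit SMC3, had 2.14 and 3.18 FPKM in the biotin libraries and 2.78 and 4.00 FPKM in the control libraries. Its groups overlapped, and the log2 difference was -0.26 ± 0.21 (SE), between -0.47 and -0.06 with 1 library left out. Replicate 1 was below replicate 2 in both groups, at 0.674 times in biotin and 0.695 times in control.

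The HDAC8 rows behaved differently from their sum. Of 7 rows, 3 were at 0 in every library. NM_001166419, of 2393 nt, had 0.931 and 1.96 FPKM in the biotin libraries and 0.208 and 0.313 FPKM in the control libraries. This row made up 43.5% and 61.5% of the gene's FPKM in biotin libraries, against 7.49% and 7.84% in control libraries. NM_001166448 was listed at 0 in both biotin libraries, where the upper bounds of its deposited intervals were 0.0258 and 0.0216 FPKM, against values of 0.874 and 0.754 FPKM in the control libraries. NM_001166422 was likewise at 0 in both biotin libraries, against 0.753 and 1.596 FPKM in the control libraries. The row NM_018486, which holds the printed seed match, had 1.21 and 1.22 FPKM in biotin and 0.942 and 1.33 FPKM in control libraries, so its groups overlapped. All 7 rows share the same higher genomic coordinate, while their lower coordinates differ. An estimated 39 and 111 reads in biotin and 8 and 13 in control libraries stood behind NM_001166419. Of the 2061 stretches of 50 bases in the main HDAC8 mRNA, 55.5% also occur on the same strand of transcripts annotated to another gene, AL133500.1.

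**Figure D2:**
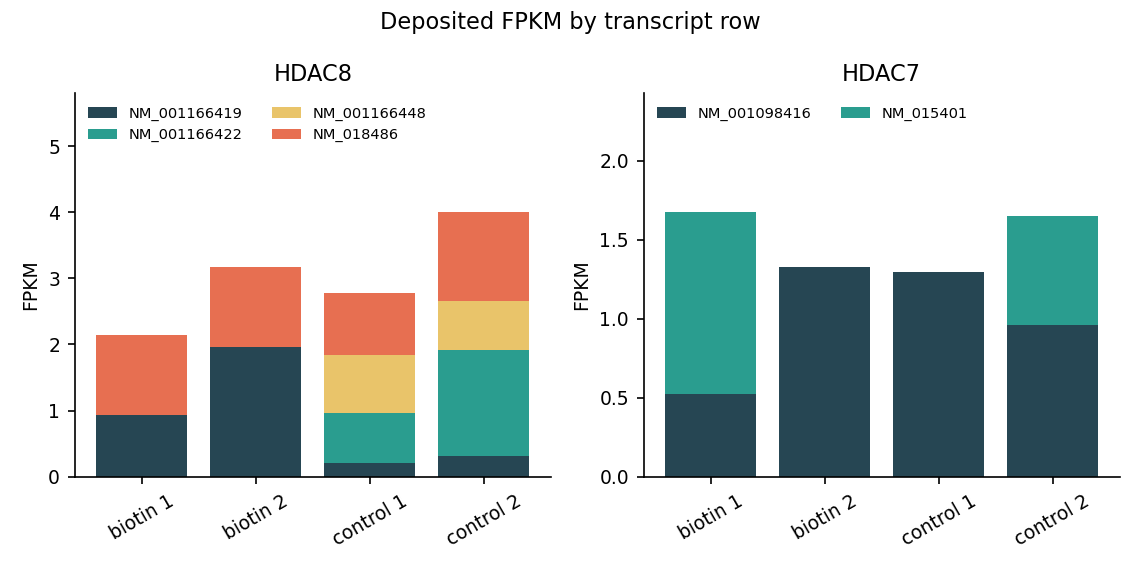
Deposited FPKM of the transcript rows above 0 of HDAC8 (left) and HDAC7 (right), stacked by library, biotin libraries before control libraries. In HDAC8 the row NM_001166419 makes up 43.5% and 61.5% of the biotin bars and 7.49% and 7.84% of the control bars, and in HDAC7 the row NM_015401 is present in 1 library of each group.

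Of the class IIa genes HDAC4 was the highest. HDAC4, with the seed match in its 3′ UTR, had 4.47 and 5.46 FPKM in the biotin libraries and 2.67 and 4.05 FPKM in the control libraries. The lowest biotin value was above the highest control value, though by less than the difference between the controls. The means were 4.96 ± 0.698 FPKM in biotin and 3.36 ± 0.971 FPKM in control libraries (SD, n = 2 each), a log2 difference of 0.47 ± 0.20 (SE). It was 0.24 without control replicate 1 and 0.69 without control replicate 2. Replicate 1 was below replicate 2 in both groups, at 0.819 times in biotin and 0.661 times in control. Nearly all of the HDAC4 signal was in the row NM_006037, and the second row, NR_026664, is a noncoding RNA of 2127 nt inside the gene that held 9.71% and 2.46% of the sum in biotin and 4.92% and 10.8% in control libraries.

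HDAC7 had 1.67 and 1.33 FPKM in the biotin libraries and 1.3 and 1.65 FPKM in the control libraries, so the groups overlapped fully (log2 difference 0.01 ± 0.16, SE). An antisense transcript overlaps 3.21% of its stretches of 50 bases. Its rows, of 4177 and 4288 nt and with the same deposited span, took turns. NM_015401 held 68.5% of the gene in biotin replicate 1 and 0 in biotin replicate 2, against 0 in control replicate 1 and 41.9% in control replicate 2. In HDAC7 the division between rows thus changed within each group while the sum stayed between 1.3 and 1.67 FPKM.

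HDAC5 and HDAC9 did not reach 1 FPKM in any library and were not tested. HDAC5 had 0.651 and 0.649 FPKM in the biotin libraries and 0.683 and 0.413 FPKM in the control libraries, and the groups overlapped. HDAC9 had 0.0502 and 0.0939 FPKM in the biotin libraries, against 0.218 and 0.190 FPKM in the control libraries. Both biotin values of HDAC9 were below both controls, but an estimated 3 and 9 reads stood behind the biotin values and 13 and 14 behind the controls. Of its 9 rows, 5 had a value above 0 in some library.

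Among class IIb genes, the FPKM values of HDAC10 separated the groups and those of HDAC6 did not. HDAC10 had 5.33 and 5.88 FPKM in the biotin libraries, against 3.02 and 3.36 FPKM in the control libraries. These values did not overlap between the groups. The means were 5.61 ± 0.393 FPKM in biotin and 3.19 ± 0.240 FPKM in control libraries (SD, n = 2 each). The log2 difference was 0.66 ± 0.14 (SE). The deposited intervals of its main row did overlap between the groups. They were 3.84 to 6.82 and 3.99 to 6.5 FPKM in biotin and 1.95 to 4.09 and 2.27 to 4.44 FPKM in control libraries. Of the 2638 stretches of 50 bases in the HDAC10 mRNA, 77.6% also occur in transcripts that GENCODE annotates to the neighbouring kinase gene MAPK12. How reads of that kind were assigned is not given. The MAPK12 row itself had 4.64 and 7.36 FPKM in biotin and 5.98 and 6.34 FPKM in control libraries, where the groups overlapped. HDAC6 had 4.57 and 3.78 FPKM in the biotin libraries and 4.58 and 3.78 FPKM in the control libraries. Its log2 difference was 0.00 ± 0.16 (SE), and in both groups replicate 1 was 1.21 times replicate 2.

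By mean FPKM, the order in the biotin libraries was HDAC1, HDAC3, HDAC10, HDAC4, HDAC6, HDAC8, HDAC7, HDAC2, HDAC5 and HDAC9. In the control libraries it was HDAC1, HDAC3, HDAC6, HDAC8, HDAC4, HDAC10, HDAC7, HDAC2, HDAC5 and HDAC9. The control values of HDAC8, HDAC4 and HDAC10 overlapped each other, as did those of HDAC6 with HDAC8 and HDAC4. In the biotin libraries HDAC4 overlapped HDAC10 and HDAC6. HDAC7 and HDAC2 overlapped in both groups, and no other neighbours in either order did. The summed FPKM of the 10 genes was 86.8 and 72.9 in biotin and 37.9 and 38.2 in control libraries, and HDAC1 made up 65.8% and 57.2% of it in biotin, against 32.7% and 30.1% in control. Without HDAC1 the sums were 29.7 and 31.2 in biotin and 25.5 and 26.7 in control libraries.

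Of the 8 tested HDAC genes, limma called 2 higher, HDAC1 and HDAC10, and 0 lower. Over all tested genes 13.1% were called higher and 9.33% lower. At an unadjusted p below 0.05 the count in limma was also 2, against 3914 of all 9941 tested genes. HDAC1 was not called without control replicate 1 or without control replicate 2, and HDAC10 was not called without any 1 of the 4 libraries. Both biotin libraries were above both controls for 4 of the 8 (HDAC1, HDAC3, HDAC4 and HDAC10), against 29.4% of all tested genes, and below both controls for 0 of the 8, against 37.7%. Because HDAC1 led to the choice of these genes from this same contrast, its call is fixed by that choice and nothing is read from any of these counts. The median log2 difference was 0.10 for the 8 and -0.06 for all tested genes.

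**Figure D3:**
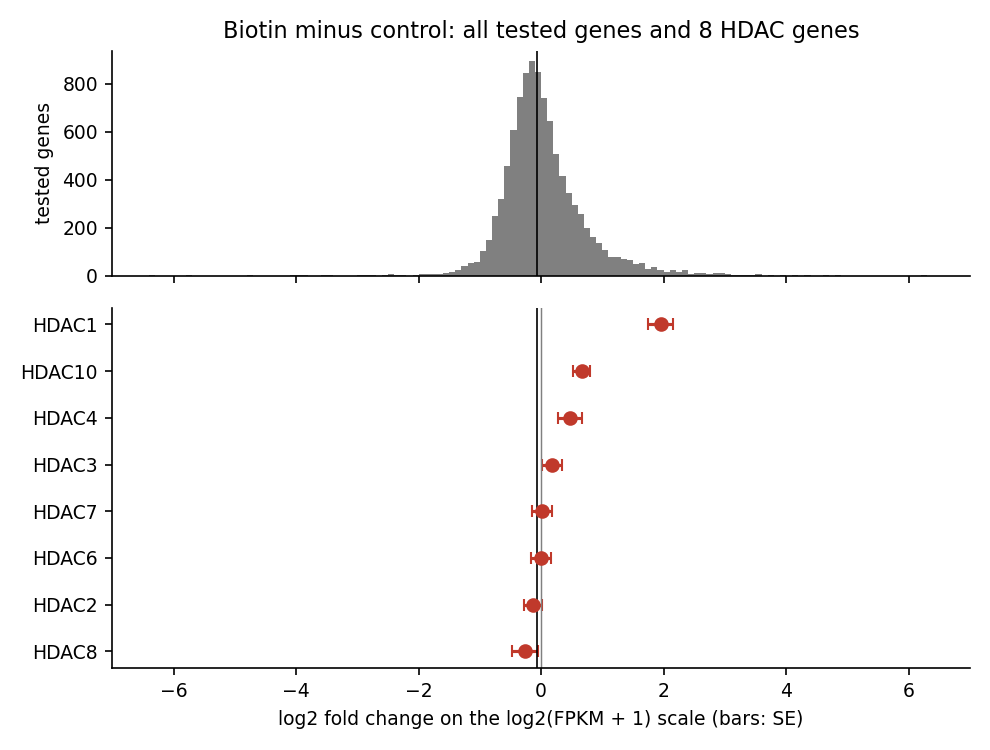
Top, the number of tested genes by log2 difference, biotin minus control, with a black line at their median of -0.06. Bottom, the same difference for the 8 tested HDAC genes, with bars of 1 SE. HDAC1 lies at 1.95, HDAC10 at 0.66 and HDAC4 at 0.47, and the others lie between -0.26 and 0.18.

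The deposited tables also give an interval for each FPKM, and for several HDAC genes the value lay outside its own interval. For HDAC1 the intervals were 93.4 to 102 and 79.3 to 86.1 FPKM in the biotin libraries, and 16.7 to 20.6 and 16.6 to 20.1 FPKM in the control libraries. Each of the 4 HDAC1 values was thus below its interval, at 0.584 and 0.505 times the midpoint in biotin and 0.662 and 0.627 times in control. The midpoints gave a biotin to control ratio of 4.87, where the FPKM gave 4.14. HDAC3 was also below its interval in all 4 libraries. HDAC4 (NM_006037) was above it in all 4, at 1.62 and 1.80 times the midpoint in biotin and 1.69 and 1.88 times in control, and HDAC6 was above it in 3 of 4. For these genes the ratios were 1.23 by midpoint and 1.15 by FPKM (HDAC3), 1.6 and 1.52 (HDAC4) and 0.937 and 0.999 (HDAC6). The order of the genes therefore depends on which column is read: by midpoint NM_006037 of HDAC4 was below HDAC6 in every library, while by FPKM it was above HDAC6 in 1 of 4. Over all rows of at least 1 FPKM, 68.5% and 70.7% of values in biotin and 64.8% and 67.5% in control libraries lay outside their interval where the gene had 1 row, against 5.86% and 6.48% in biotin and 5.89% and 5.55% in control where it had several. The reason was not tested.

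**Figure D4:**
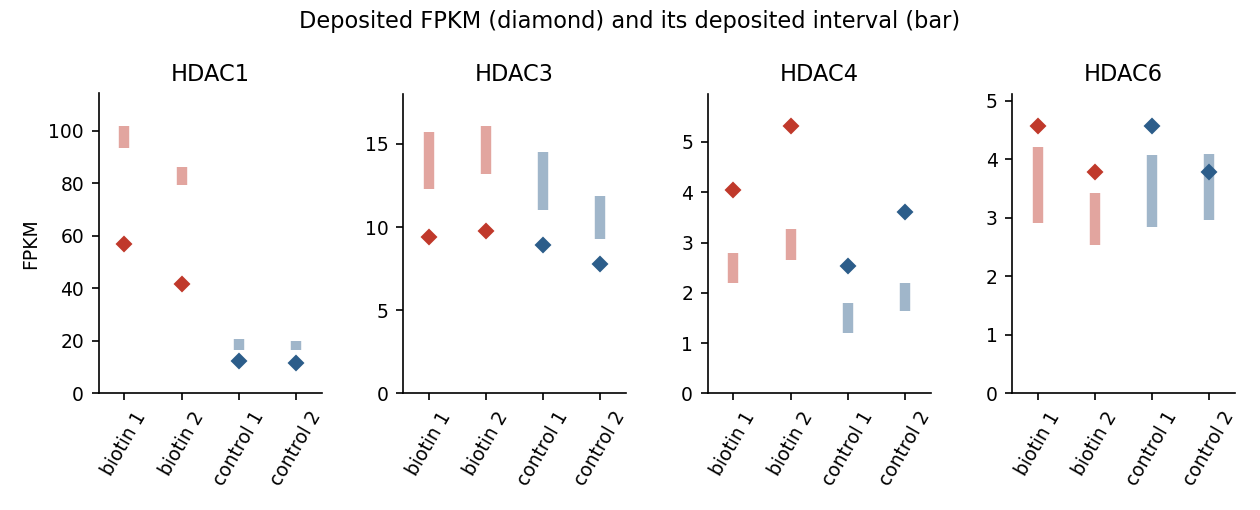
Deposited FPKM (diamonds) and the deposited interval of the same row (bars) in the biotin libraries (red) and control libraries (blue), for HDAC1, HDAC3, HDAC4 (NM_006037) and HDAC6. The HDAC1 and HDAC3 diamonds lie below their bars, those of HDAC4 above, and HDAC6 has 1 diamond inside its bar.

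The subunits that work with class I enzymes were compared next, as 44 genes of 5 complexes. Of 34 tested, 3 rose and 5 fell in the biotin libraries (limma, adjusted p below 0.05), against 13.1% and 9.33% of all tested genes. The median log2 difference was -0.08, where that of all tested genes was -0.06. MTA2, the NuRD subunit that binds HDAC1 and HDAC2, had 23.1 and 23.4 FPKM in biotin and 8.95 and 8.59 FPKM in control libraries. This was a log2 difference of 1.31 ± 0.16 (SE) with a limma adjusted p of 0.00422. The NuRD helicase CHD4 had 3.16 and 3.56 FPKM in biotin and 3.16 and 2.29 FPKM in control libraries, and did not pass (adjusted p in limma not below 0.05). The histone-binding subunit RBBP7 fell by 0.64 and CDK2AP1 by 0.65 on the log2 scale, while RBBP4, the paralog of RBBP7, stood at 5.23 ± 0.139 FPKM in biotin and 6.14 ± 0.636 FPKM in control libraries (SD, n = 2 each) without passing.

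In the SIN3 complex 1 of 9 tested genes rose, BRMS1 by 0.65 ± 0.17, and 1 fell, SAP18 by 0.62 on the log2 scale. The scaffold SIN3A had 3.42 and 3.96 FPKM in biotin and 3.14 and 3.07 FPKM in control libraries and did not pass. Of the partners of HDAC3, TBL1XR1 rose by 0.89 ± 0.19, and its paralog TBL1X and the scaffold NCOR1 fell by 0.55 and 0.60. NCOR1 had 1.61 and 1.42 FPKM in biotin and 2.74 and 2.85 FPKM in control libraries. None of 5 tested CoREST genes passed in limma, and 3 had an unadjusted p below 0.05, which 3914 of all 9941 tested genes had. Among those 3, the demethylase KDM1A was at 11.7 and 10.5 FPKM in biotin and 15.1 and 18.4 FPKM in control libraries. The scaffold RCOR1 was at 9.77 and 8.97 FPKM in biotin and 7.26 and 8.21 FPKM in control libraries and was not one of them. Of 5 tested MiDAC and MIER genes 0 passed in limma and 1 had an unadjusted p below 0.05, MIDEAS of MiDAC, at 4.76 and 5.12 FPKM in biotin and 3.69 and 3.504 FPKM in control libraries. DNTTIP1, also of MiDAC, did not reach that and had 1.40 and 1.23 FPKM in biotin and 2.60 and 1.44 FPKM in control libraries. These complex calls rested on all 4 libraries. With any 1 library left out most of them were lost, as were most calls over all tested genes, so nothing about these complexes is read from the loss.

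Partners of class IIa enzymes were taken as 23 genes. Of 17 tested genes 4 rose and 1 fell (limma, adjusted p below 0.05), against 13.1% and 9.33% of all tested genes. The median log2 difference was 0.10, against -0.06 for all tested genes. Of the YWHA genes, which encode adaptors that hold phosphorylated class IIa enzymes in the cytoplasm, YWHAZ had 139.5 and 154.4 FPKM in biotin and 22.1 and 34.0 FPKM in control libraries. Its log2 difference was 2.38 ± 0.25 (SE) with a limma adjusted p of 0.00272. YWHAQ rose by 1.6 ± 0.20 and YWHAG by 1.23 ± 0.19, whereas YWHAH was at 9.29 ± 0.725 FPKM in biotin and 12.03 ± 0.219 FPKM in control libraries (SD, n = 2 each) and YWHAE was listed at 0 in all 4. These adaptor genes resemble each other and have pseudogenes. Whether reads were divided among them was not tested, and single values are uncertain. The kinase gene CAMK2G rose by 1.68 ± 0.20. The transcription factor gene MEF2A fell to 2.22 and 2.78 FPKM in biotin, against 4.29 and 4.71 FPKM in control libraries, while MEF2D, at 2.39 and 2.61 FPKM in biotin and 1.89 and 1.95 FPKM in control libraries, did not pass. YWHAZ passed whichever of the 4 libraries was left out. YWHAQ lost its call without control replicate 1, CAMK2G and YWHAG without either control replicate, and MEF2A in all 4. Most calls over all tested genes were lost in these fits as well. With upper-quartile scaling 8 of the 17 genes were called, of which 4 were lower.

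Deacetylases outside the family were led by SIRT1, an NAD-dependent enzyme of class III. It had 16.2 and 17.5 FPKM in biotin and 4.16 and 3.84 FPKM in control libraries. The log2 difference was 1.84 ± 0.15 (SE) with a limma adjusted p of 0.00126, and the call held whichever of the 4 libraries was omitted. Of 7 tested class III and IV genes SIRT1 was the 1 that rose and 0 fell (limma), against 13.1% and 9.33% of all tested genes. An unadjusted p below 0.05 was reached by 2, against 3914 of all 9941. The second of these was HDAC11, the class IV enzyme, at 1.21 and 1.31 FPKM in biotin and 0.717 and 0.771 FPKM in control libraries (log2 difference 0.37 ± 0.14, SE). HDAC11 reached the level for testing through its biotin values alone. With each transcript row tested by itself, 0 genes of this list passed. SIRT2, all of it in a noncoding row, was listed at 3.93 and 0 FPKM in biotin and 5.39 and 4.81 FPKM in control libraries. Without biotin replicate 1, which leaves the library with SIRT2 at 0, the count of calls was 2 instead of 1, the added one being lower.

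Of the opposing enzymes, the histone acetyltransferases, 1 of 11 tested genes rose and 0 fell in limma, against 13.1% and 9.33% of all tested genes. An unadjusted p below 0.05 was reached by 3, against 3914 of all 9941. The gene that rose was KAT5, the catalytic subunit of the NuA4 complex, with 12.8 and 10.1 FPKM in biotin and 3.20 and 2.12 FPKM in control libraries. Its log2 difference was 1.77 ± 0.21 (SE) with a limma adjusted p of 0.00372, and it lost the call without control replicate 2 (0 of 11, highest adjusted p over the 4 fits 0.0527, limma). EP300 stood at 4.11 and 3.76 FPKM in biotin and 3.87 and 3.55 FPKM in control libraries, close to each other in all 4. Of the 15 genes of these lists that were called, 1 had TACTTGA in its 3′ UTR, CDK2AP1, which fell, and of 54 that were searched and not called 2 had it, MIER3 and RCOR1, against 11.8% of all tested genes with a matched transcript.

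**Figure D5:**
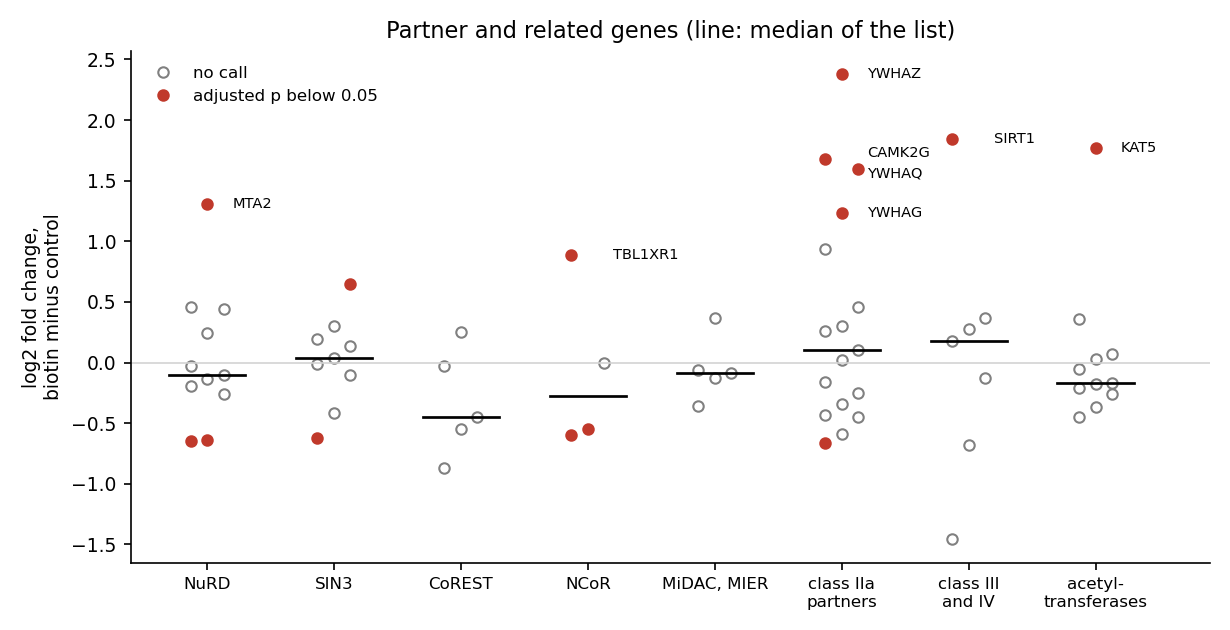
Log2 difference, biotin minus control, on the log2(FPKM + 1) scale for the tested genes of each list, with filled points for genes with a limma adjusted p below 0.05 and a line at each list's median. The highest points are YWHAZ at 2.38, SIRT1 at 1.84, KAT5 at 1.77 and CAMK2G at 1.68, and the medians lie between -0.45 for CoREST and 0.18 for class III and IV.

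The 5 tested genes whose log2(FPKM + 1) values, centred over the 4 libraries, lay closest to those of HDAC1 were CYB561D2, NCDN, AP1S1, ZCRB1 and ASF1B, at Euclidean distances of 0.064, 0.097, 0.111, 0.144 and 0.151. CYB561D2, which encodes a cytochrome, had 94.1 and 73.3 FPKM in biotin and 21.2 and 20.1 FPKM in control libraries. ASF1B, a histone chaperone, had 153.5 and 111.6 FPKM in biotin and 30.5 and 29.2 FPKM in control libraries. Replicate 1 was the higher biotin library in all 5, as in HDAC1, which follows from choosing genes by closeness to its profile.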

How the data were processed

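Cufflinks 2.1.1, TopHat2 2.0.9, Cuffdiff, cutadapt and FastQC 0.10.1 are named with build hg38 in the submitters' processing notes. Their roles, settings, annotation and strand mode were not given there. The authors deposited 1 Cufflinks table per library, with FPKM (relative to transcript length and mapped fragments), an interval of the FPKM, and the coverage, which served to estimate depth. Per the file headers each row also has a transcript length and a status.

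RefSeq accessions were given symbols from the RefSeq gene table or GENCODE 29 (98.6% of 46699 accessions), and FPKM was summed per gene. Genes with a failed or excess-data row (22) and short structured RNA genes were left out. Genes with at least 1 FPKM in at least 2 libraries were tested with limma 3.58.1 in R 4.3.3 (variance trend) on log2(FPKM + 1), where the pseudocount of 1 understates changes of low genes, two-sided, adjusted by Benjamini-Hochberg over all tested genes. Residual degrees of freedom were 2. The fit was tested on simulated data. No raw counts were used, so estimated reads carry counting error that is not given.

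The HDAC genes and the partner lists were chosen with earlier results of these data known. Genes named were all HDAC genes, list members past the threshold (at most 6 per list), fixed scaffold genes, and the 5 profiles nearest to HDAC1. MAPK12, YWHAH, SIRT2, EP300 and the list genes at 0 were named after their values were seen. Some genes of the lists are not reported here. Alternatives were pseudocounts, filters, scalings, no trend, short RNAs kept, single rows, a replicate block, each library left out, and, added after the data were seen, the interval midpoint.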

Additional observations from a re-analysis of the deposited data

How the results depend on the processing

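The HDAC1 log2 difference of 1.95 was 1.67 with a pseudocount of 5 and 2.22 from interval midpoints, an alternative chosen after seeing the data, and lay between 1.73 and 2.17 with a library left out. HDAC10 lay between 0.37 and 0.80 over all alternatives, and neither it nor HDAC1 changed sign. As single transcript rows HDAC8 stood at 0.06, against -0.26, and HDAC7 at -0.17, against 0.01. With a library left out HDAC2 lay between -0.24 and -0.02, HDAC3 between 0.09 and 0.27, HDAC7 between -0.09 and 0.12, and HDAC6 between -0.11 and 0.11. The genes called higher (1307) and lower (927) numbered 653 and 230 without a filter, 336 and 142 as single transcript rows, and between 193 and 680 higher and between 32 and 223 lower with a library left out. Of the complex genes, 8 in the main analysis, 1 was called without a filter, 5 at a mean FPKM of at least 5 (of 11 then tested, against 34), 4 with short RNA genes kept, 1 as single rows, and between 0 and 1 with a library left out. Class IIa partners numbered 8 with upper-quartile scaling and 3 as single rows, against 5, and between 1 and 5 with a library left out. Class III and IV deacetylases numbered 0 as single rows, against 1, and between 1 and 2 with a library left out. Acetyltransferases numbered 2 with upper-quartile scaling, against 1, and between 0 and 1 with a library left out. In the longest 3′ UTR 3 HDAC genes had a seed match, against 1. The cause of these shifts was not tested. Same-numbered replicates did not deviate together across groups (r = 0.002 across genes). A replicate block gave 1078 higher and 534 lower genes and 3 complex genes, all higher. HDAC5 and HDAC9 were below the level for testing in the main analysis, and no fit of them is given. With 2 libraries per group, genes near 1 FPKM rest on few reads, and a missed threshold does not show equality.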

Other observations

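Several genes of the lists that most cells express were listed at 0 in all 4 libraries: GATAD2B of NuRD, the mitochondrial deacetylase gene SIRT3 and the adaptor gene YWHAE. No failed or excess-data status was attached to them in the tables. GATAD2B and YWHAE are each listed on a chromosome and again on an alternate contig of the build, while SIRT3 and the HDAC genes are listed on chromosomes alone. Why they stand at 0 was not tested.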
